A study of Chrysanthemum x morifolium with 12 samples.

Results

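The comparison covered 6 arrays: 3 of dark green ray floret petals of the chrysanthemum (Chrysanthemum x morifolium) line Feeling Green Dark (FGD) and 3 of green petals of its parent, Feeling Green (FG), out of 12 arrays in the series. FGD is a bud sport of FG, which means that a shoot of the parent changed and was propagated as a clone, so each group is a single line. All plants were grown in a greenhouse under natural daylight, and ray petals were taken at a middle stage of flower development (stage 2, when the outermost ray florets begin to open). The other 6 arrays held petals of Feeling White (FW, another bud sport of FG) at the same stage and mature leaves of FG, 3 arrays each. The labels decided which arrays belong to which group. The labels number biological replicates without saying whether they came from separate plants, so p-values measure the spread between these samples.

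Green color in petals comes from chlorophyll (Chl), which is made from glutamate through 5-aminolevulinic acid and protoporphyrin IX. Mg-chelatase places magnesium in the ring, a cyclase and protochlorophyllide oxidoreductase finish the chlorophyllide, and Chl synthase adds the phytol tail. Chl a and Chl b are converted into each other in the Chl cycle, and breakdown starts when Mg-dechelatase (STAY-GREEN) removes the magnesium. In most flowers petals lose their Chl as they open, and transcription factors of several families are known to act on greening and on petal development.

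The scanner files identify probes by number and hold no probe sequence. Several of the genes described below were also amplified by RT-qPCR in the study. The primers of *MIF2*, *MYB3*, *MYB4* and a *COL16-like* gene are shown, 5′ to 3′ and in lower case throughout, to identify these transcripts by sequence. They are primers for the gene named, not array probes, and their RT-qPCR values were not used here.
MIF2 forward: ggtgagtgtcaaaggaaccatgc
MIF2 reverse: ccaccacccttctatggaagt
MYB3 forward: tcaagctcctcatggacacctc
MYB3 reverse: agttttaccaccaactgcccta
MYB4 forward: gggatatcatgcaaattgaatccgac
MYB4 reverse: ttcagaagcctttgttcatttgcg
COL16-like forward: gctgacgatgcttttctatgccaa
COL16-like reverse: cgaaactgcgcctgaaccaaa

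Expression is given as the log2 signal of a probe minus the 75th percentile of its array, so that 1 unit is a doubling, and levels are compared between arrays for the same probe only. The 75th percentile was a signal of 339 to 346 on the FG petal arrays and 308 to 347 on the FGD petal arrays. Between 67.0% and 69.6% of the 176026 probes were flagged by the scanner software as well above background on these arrays, called detected below, and no spot was saturated. FG petal arrays correlated with each other at r = 0.982 to 0.991 and FGD petal arrays at r = 0.982 to 0.990, while r was 0.934 to 0.965 between the groups. No marker of petal or leaf cells is paired with a probe, so tissue identity could not be checked by marker genes.

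The arrays lay on 3 slides, and no slide held both groups. The 3 FG petal arrays shared the first slide with FW petal replicate 1. FGD petal replicates 1 and 2 shared the second with FW petal replicates 2 and 3, and FGD petal replicate 3 shared the third with the leaf arrays. Slide and group can therefore be separated only through FW petals. A fit with slide as a block is given as "slide as a block" and rests on FW petal replicate 1 for the step between the first and second slides. FGD petal replicate 3 then adds nothing to the estimate.

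FG petal replicate 2 lay nearer to the FGD petal arrays than the other FG petal arrays did. The median absolute log2 difference to the FGD petal arrays was 0.192 to 0.224 for FG petal replicate 2, 0.220 to 0.248 for replicate 1 and 0.248 to 0.281 for replicate 3. Within groups it was 0.103 to 0.149 for FG petals and 0.122 to 0.150 for FGD petals.

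FGD petals differed from FG petals in 838 of 70270 tested probes by more than 5-fold with an adjusted p below 0.05 (limma with Benjamini-Hochberg adjustment), which is 1.19% of those tested. Of these, 313 were higher in FGD petals (0.445%) and 525 were lower (0.747%). Without a limit on fold change, 19858 probes (28.3%) were called, 9914 higher (14.1%) and 9944 lower (14.2%). Lower calls outnumbered higher ones at each of these limits, with 2295 higher and 2536 lower at over 2-fold, 103 higher and 173 lower at over 10-fold, and 7 higher and 23 lower at over 50-fold. Higher calls were thus 37.4% of calls at over 5-fold. This share was 50.7% with no filter on signal, 48.9% among probes detected on all 3 arrays of either group, and 49.6% with slide as a block. The calls were spread over the signal range, with 1.34% of probes called at a mean signal of 100 to 300 and 1.05% at a mean signal of 3000 or more.

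**Figure D1:**
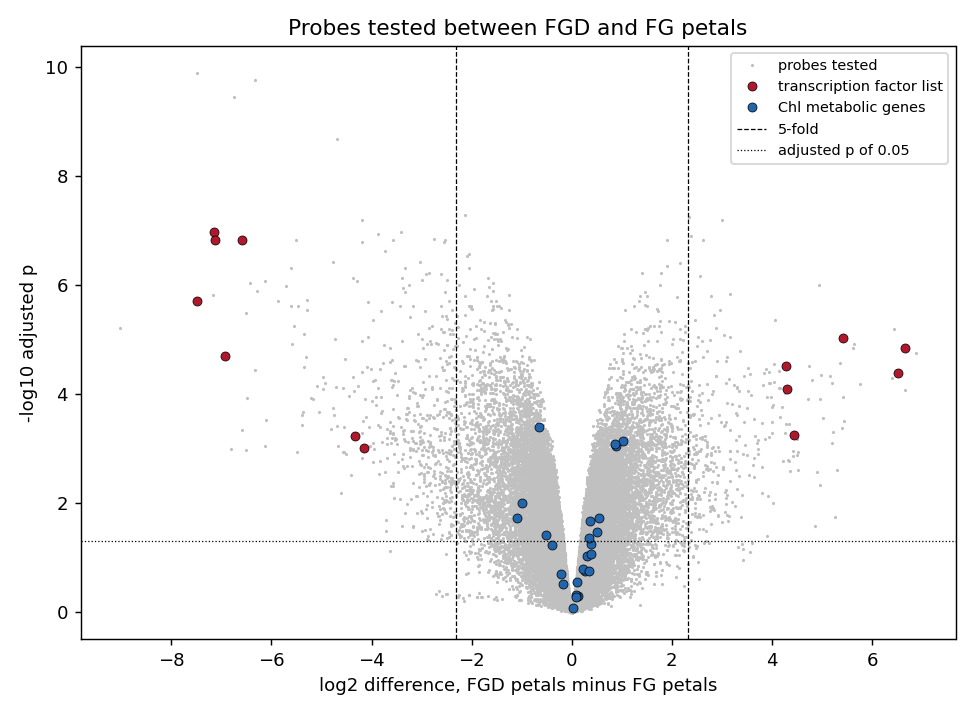
Each grey point is a tested probe, with the log2 difference of FGD minus FG petals on the x axis and minus log10 of the adjusted p on the y axis; red points are tested probes of the transcription factor list and blue points those of the Chl metabolic genes. The red points lie beyond the 5-fold lines on both sides, and the blue points lie inside them.

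The probes called at over 5-fold can be read by their levels in all 4 groups. Among the 313 higher probes, the median level was -2.26 in FG petals, 0.92 in FGD petals, -2.51 in FW petals and -0.41 in leaves. Among the 525 lower probes it was 0.73 in FG petals, -2.46 in FGD petals, 0.88 in FW petals and -0.85 in leaves. For both sets the FW petal median thus lay close to that of FG petals, while the leaf median lay between those of FG and FGD petals. These sets were chosen by the FG and FGD values, and FW petal and leaf values entered through the signal filter and the variance. The medians of all 4 groups are therefore descriptions. Across all tested probes the medians were 0.64 in FG petals, 0.64 in FGD petals, 0.64 in FW petals and 0.67 in leaves.

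All FGD petal arrays lay on the same side of all FG petal arrays for 313 of the 313 higher probes and 519 of the 525 lower probes. Across all tested probes 49.7% had no overlap between the groups, 25.4% with FGD petals above and 24.3% with FGD petals below. FG petal replicate 2 was the FG petal array nearest to FGD petals for 229 of the 313 higher probes (73.2%) and for 445 of the 525 lower probes (84.8%). Without that array, 433 higher and 698 lower probes were called. FGD petal replicate 2 was the nearest to FG petals for 129 higher and 232 lower probes.

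With slide as a block, 312 of the 313 higher probes and all 525 lower probes kept their sign, as did 52524 of the 70270 tested probes. The called probes were chosen for a large difference on the same arrays that the block fit uses. Most of their signs were therefore bound to hold, and keeping them is no test of the slide. The median log2 difference of the higher probes was 2.89 without and 2.69 with the block, and that of the lower probes was -2.95 and -2.43. Of the 838, 99 higher and 154 lower probes stayed called at over 5-fold. FW petal replicate 1 minus the mean of FW petal replicates 2 and 3, which sets arrays of a single line on different slides against each other, had a median of -0.41 over the higher probes and 0.60 over the lower probes, against -0.02 over all tested probes. In FW petals slide and replicate cannot be told apart.

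**Figure D2:**
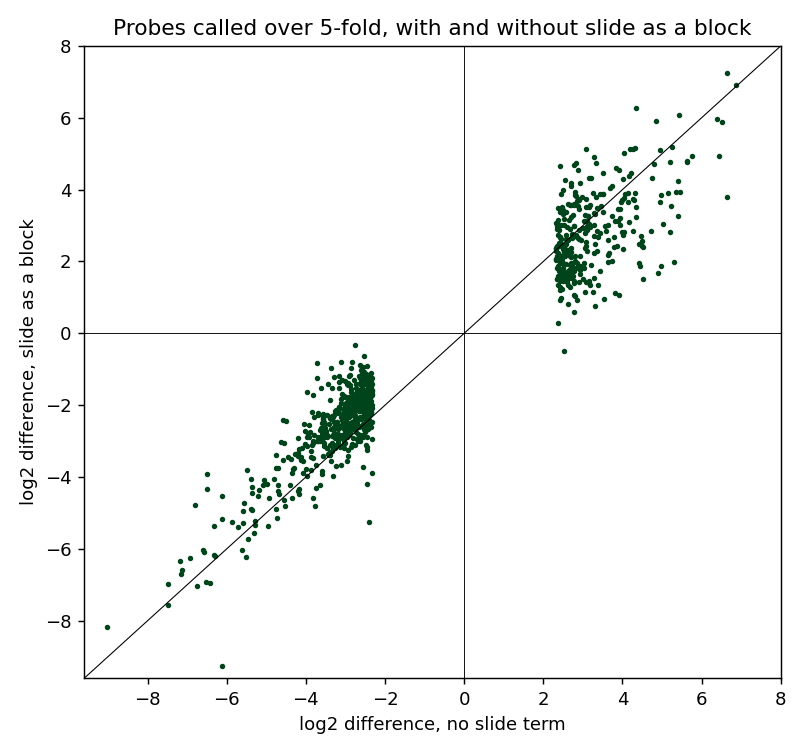
Each point is a probe called at over 5-fold between FGD and FG petals, with the log2 difference without a slide term on the x axis and with slide as a block on the y axis, and the diagonal marks equal values. All lower probes and 312 of 313 higher probes keep their sign, and 443 of the 525 lower probes are closer to 0 under the block. The probes were chosen for a large difference on these same arrays, so most signs were bound to hold.

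Some probes were detected in a single group. Over the whole array, 820 probes were detected on all 3 FGD petal arrays and on no FG petal array, and 913 the other way round. Of the 820, 13.8% were also detected on all 3 FW petal arrays and 37.6% on all 3 leaf arrays. No FW petal array detected 455 of them (55.5%). Of the 913, 47.0% were also detected on all 3 FW petal arrays and 29.5% on all 3 leaf arrays. No FW petal array detected 176 of them (19.3%). Over all probes, 62.9% were detected on all 3 FW petal arrays, 60% on all 3 leaf arrays and 29.7% on no FW petal array. Detection is a flag on each array, and no test was run on these counts.

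The transcription factor list held 24 probes, which the study picked on these same arrays for their difference between FGD and FG petals. Its direction is therefore no independent evidence, and its values are given as a description. Of the probes, 14 were listed as higher and 10 as lower, and all 24 had that sign here. The 13 that passed the signal filter were all called at over 5-fold, 6 higher and 7 lower, where 1.19% of all tested probes were called. The other 11 had adjusted p under 0.05 in a fit of all probes. With slide as a block, 14 of the 24 still had an adjusted p under 0.05. FG petal replicate 2 was the FG petal array nearest to FGD petals for 17 of the 24.

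*MIF2* (mini zinc finger 2) showed the largest fall among the listed genes. In Arabidopsis, mini zinc finger proteins lack a homeodomain and bind zinc finger homeodomain factors. For probe PD0028_132595 the levels were 6.65, 5.97 and 6.75 in FG petals and -0.91, -0.77 and -1.41 in FGD petals. The FGD petal arrays all lay far below the FG petal arrays, and FG petal replicate 2 was the lowest of its group. The level fell by 7.49 on the log2 scale (SE 0.39, adjusted p = 1.97e-06), a 179-fold difference. In FW petals it was 6.95, 6.39 and 6.87, which overlapped the FG petal levels, and no leaf array detected it.

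The other *MIF2* probes behaved alike. PD0028_125957 was at 5.75, 5.05 and 5.94 in FG petals and at -1.43, -1.42 and -1.87 in FGD petals, a 142-fold difference (log2 -7.15, SE 0.23, adjusted p = 1.05e-07). Over the 6 *MIF2* probes the log2 difference was -7.49 to -6.11, or -6.98 to -5.48 with slide as a block, with adjusted p of 0.000215 to 0.0223 under the block. Probes PD0028_043321 and PD0028_041425 were not detected on any FGD petal array, so their differences are bounds, at least 84.2-fold and at least 15-fold. A bound sets the brighter group against the dimmest detected probe of each dim array, or against the probe's own signal where that was higher. FG petal replicate 2 was the lowest FG petal array for all 6 probes. The probes carry the same gene name, and whether they measure 1 transcript or close copies cannot be told apart.

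**Figure D3:**
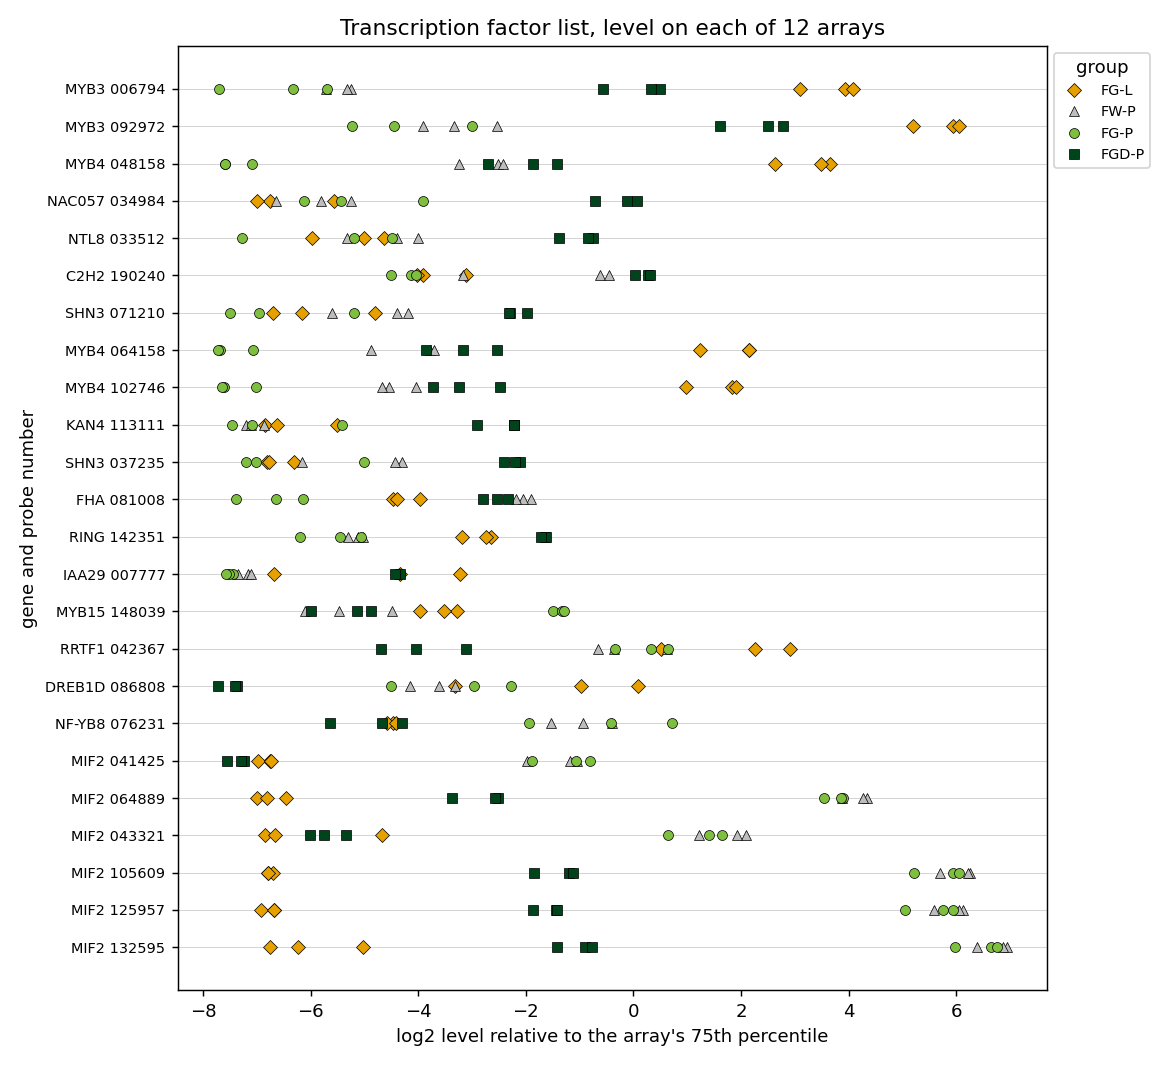
Each row is a probe of the transcription factor list and each point an array, with the log2 level relative to the 75th percentile of the array on the x axis, for FG petals (light green circles), FGD petals (dark squares), FW petals (grey triangles) and FG leaves (orange diamonds). *MIF2* probes show high FG and FW petal levels and low FGD petal levels, and *MYB3* and *MYB4* probes show leaf levels above those of FGD petals.

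*NF-YB8*, *RRTF1*, *DREB1D* and *MYB15* were the other listed genes with lower levels in FGD petals. *NF-YB8* encodes a subunit of the nuclear factor Y complex, which binds CCAAT boxes. Its levels were -0.42, -1.94 and 0.71 in FG petals and -5.63, -4.68 and -4.31 in FGD petals, where 2 of 3 arrays detected it. This was a difference of at least 17.4-fold with the undetected array at the floor used for the bounds (adjusted p = 0.000589). *RRTF1* encodes an ERF family protein that responds to redox changes in Arabidopsis. It was at 0.33, -0.34 and 0.64 in FG petals and at -4.69, -4.04 and -3.11 in FGD petals, a 17.9-fold difference (adjusted p = 0.000984). With slide as a block the adjusted p was 0.112 for *NF-YB8* (log2 -3.76) and 0.124 for *RRTF1* (log2 -3.45).

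*DREB1D* and *MYB15* lay below the signal filter. *DREB1D*, known in Arabidopsis for drought responses, was not detected on any FGD petal array and was at least 3.77-fold lower than in FG petals (adjusted p = 0.00858, or 0.426 with slide as a block). *MYB15* was at -1.50, -1.32 and -1.30 in FG petals and at -5.99, -5.14 and -4.88 in FGD petals, where 1 of 3 arrays detected it. This was a difference of at least 12.3-fold with the undetected arrays at the floor, with an adjusted p of 0.000374 and of 0.0094 with slide as a block. Unlike *MIF2*, *MYB15* was also low in FW petals, at -6.10, -4.49 and -5.47.

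The listed *MYB3* and *MYB4* probes are annotated as RADIALIS-like SANT/MYB genes, relatives of the snapdragon gene RADIALIS that acts in the asymmetry of the flower. *MYB3* probe PD0028_092972 was at -4.44, -2.99 and -5.22 in FG petals and at 2.78, 2.50 and 1.60 in FGD petals. The groups did not overlap, and FG petal replicate 2 was the highest of its group. The level was 91.4-fold higher in FGD petals (log2 6.51, SE 0.55, adjusted p = 4.05e-05), and 5.88 on the log2 scale with slide as a block (adjusted p = 0.0224). In leaves it was 5.94, 6.04 and 5.20, all above the FGD petal arrays, and in FW petals it was -3.91, -2.53 and -3.33.

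*MYB3* probe PD0028_006794 was not detected on any FG petal array and was at least 44.0-fold higher in FGD petals, where it was at 0.49, 0.32 and -0.57 (adjusted p = 1.43e-05). *MYB3* probe PD0028_010170, which stood on the list for FW petals only, was at 0.70, 0.87 and 0.76 in FG petals and at 1.43, 1.75 and 1.42 in FGD petals. The groups did not overlap, but the difference of 0.76 did not pass the test (SE 0.49, adjusted p = 0.273). It passed in a fit of only the 6 arrays (SE 0.11, adjusted p = 0.00642), without the leaf arrays, whose SD for this probe was 1.32, and with a signal floor (adjusted p = 0.000173) or normexp (0.00233). Probes under the same gene name thus gave different sizes.

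*MYB4* had 3 probes, none of them detected on any FG petal array. PD0028_048158 was at -1.87, -1.42 and -2.69 in FGD petals and at least 10.4-fold higher than in FG petals (adjusted p = 9.12e-06). Its FGD petal signals were 85.4, 115 and 53.6, and with a signal floor of 100 its log2 difference was 0.045 (adjusted p = 0.909). The bounds were at least 4.59-fold for PD0028_064158 and at least 4.69-fold for PD0028_102746. Their FGD petal signals were 23.9 to 53.3 and 26.3 to 55.2, all under that floor. All 3 *MYB4* probes were among the 13 tested probes of the list, but passed the signal filter only through the leaf arrays. All 3 kept an adjusted p of 0.0114 or less with slide as a block. The probes were also detected on all FW petal arrays, where PD0028_048158 was at -2.52, -2.43 and -3.24, and highest in leaves, at 3.66, 3.48 and 2.63.

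*NAC057* and *NTL8* encode NAC domain proteins, and NTL8 is tethered to membranes in Arabidopsis. *NAC057* was at -6.12, -3.90 and -5.44 in FG petals, with 1 of 3 arrays detecting it, and at -0.12, -0.72 and 0.07 in FGD petals (at least 24.7-fold, adjusted p = 0.00102). Here and below, FG petal arrays that did not detect such a probe were set at the floor used for the bounds. *NTL8* was at -7.27, -4.48 and -5.19 in FG petals, again with 1 of 3 arrays detecting it, and at -0.74, -1.38 and -0.84 in FGD petals (at least 16.2-fold, adjusted p = 0.00224). In both genes the brightest FG petal array was replicate 2. Under the slide block the log2 differences were 4.86 and 5.44, with adjusted p of 0.135 and 0.124.

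*SHN3* belongs to the SHINE clade, which promotes cuticle formation in Arabidopsis. Probe PD0028_071210 was at -1.98, -2.29 and -2.31 in FGD petals and at least 8.75-fold higher than in FG petals (adjusted p = 0.0028). Probe PD0028_037235, detected on 1 of 3 FG petal arrays, was higher by at least 8.08-fold (adjusted p = 0.00254). Neither passed the test under the slide block (adjusted p = 0.335 and 0.341). *KAN4*, a KANADI gene that acts in the outer layers of the Arabidopsis ovule, was at least 7.62-fold higher (adjusted p = 0.00101, or 0.0893 with the block).

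Among these genes, the C2H2 zinc finger probe PD0028_190240 changed most between the fits without and with slide as a block. It was at -4.51, -4.14 and -4.04 in FG petals and at 0.28, 0.31 and 0.03 in FGD petals, a 21.6-fold difference (log2 4.43, SE 0.59, adjusted p = 0.000561). In FW petals it was -3.17 on the first slide and -0.61 and -0.46 on the second. Under the slide block the log2 difference was 1.88 (adjusted p = 0.0593). The FHA domain probe was at least 7.08-fold higher in FGD petals and the RING domain probe, detected on 1 of 3 FG petal arrays, at least 12.2-fold higher, and both kept an adjusted p under the threshold with the block (0.0142 and 0.0215). *IAA29*, an Aux/IAA repressor of auxin responses, was at least 2.00-fold higher (adjusted p = 0.0334) with FGD petal replicate 2 missing because its spot was an outlier. That call was lost with slide as a block (adjusted p = 0.54), with slide as a random block (0.0572), and without any 1 of the 5 arrays that measured it (0.0692 to 0.131).

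The Chl biosynthesis genes differed by less than 5-fold. Of 22 probes, 16 were tested, 7 were higher in FGD petals (43.8%, against 14.1% of all tested probes) and 1 was lower (6.25%, against 14.2%). The median log2 difference was 0.35 over the tested probes and 0.01 over all tested probes on the array. All FGD petal arrays lay above all FG petal arrays for 13 of the 22 probes and below for 1. Over all tested probes these shares were 25.4% and 24.3%, while the 22 include probes below the signal filter. With slide as a block none of the 16 passed the test, where 3.17% of all tested probes did. Under the block 14 of the 22 kept their sign, as did 52524 of the 70270 tested probes. The median of the list was then 0.05. Without FG petal replicate 3 the number called higher was 3.

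At the entry of the pathway, the 2 genes for glutamyl-tRNA reductase moved in opposite directions. *HEMA1* was at -1.03, -1.17 and -1.33 in FG petals and at -0.28, -0.35 and -0.22 in FGD petals, higher by 0.89 (SE 0.13, adjusted p = 0.000896). *HEMA2* was at 0.56, -0.12 and -0.27 in FG petals and at -1.11, -0.97 and -1.04 in FGD petals, lower by 1.09 on the log2 scale (log2 difference -1.09, SE 0.29, adjusted p = 0.0184), though not called without FG petal replicate 1 or without FGD petal replicate 1. *HEMA1* differed by 0.54 with slide as a block (adjusted p = 0.237) and *HEMA2* by -0.61 (adjusted p = 0.623).

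*GSA1* and *GSA2* encode the aminotransferase that makes 5-aminolevulinic acid, and were higher by 0.36 (adjusted p = 0.0211) and 0.50 (adjusted p = 0.0339). *HEME1*, for uroporphyrinogen decarboxylase, was higher by 0.55 (adjusted p = 0.0186), with levels of 0.32, 0.45 and 0.08 in FG petals and 0.80, 0.68 and 1.01 in FGD petals. *HEMC*, for porphobilinogen deaminase, had all FGD petal arrays above the FG petal arrays with a difference of 0.39 that did not pass the test (adjusted p = 0.0551). *HEMB* differed by 0.11 (95% interval -0.05 to 0.26). The *HEMD* probe was not detected on any array of either group.

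In the magnesium branch, *CHLH*, for the H subunit of Mg-chelatase, was at 2.62, 2.91 and 2.48 in FG petals and at 3.63, 3.62 and 3.84 in FGD petals. It was 2.04-fold higher (log2 1.03, SE 0.14, adjusted p = 0.000723), and its leaf levels of 6.44, 6.07 and 6.22 lay above both. The probes that the study lists for the other Mg-chelatase subunits were below the signal filter. *CHLI* had a difference of 0.07 (95% interval -0.20 to 0.35) and *CHLD* of 0.44 (-0.35 to 1.23). *CHLM*, for the methyltransferase that follows, differed by 0.03 (-0.17 to 0.23). *CRD*, for the cyclase, was at 5.42, 5.61 and 5.37 in FG petals and at 6.28, 6.34 and 6.38 in FGD petals, higher by 0.86 (adjusted p = 0.000831).

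Of the genes for protochlorophyllide oxidoreductase, *PORC* was higher by 0.35 (adjusted p = 0.0432), *PORB* differed by 0.35 without passing the test (adjusted p = 0.176) and *PORA* by 0.12 (95% interval -0.15 to 0.38). *CHLG*, for Chl synthase, differed by 0.31 (adjusted p = 0.0926). With slide as a block *CHLH* differed by 0.84 (adjusted p = 0.146), *CRD* by 0.41 (adjusted p = 0.235) and *PORC* by 0.06 (adjusted p = 0.911). *HEMA1*, *CHLH* and *CRD* stayed called when any 1 of the 6 arrays was left out, and *GSA1*, *GSA2*, *HEME1* and *PORC* did not. *GSA2* and *PORC* lost the call whichever of the 6 was left out, *GSA1* without FG petal replicate 1 or 3 or FGD petal replicate 1 or 2, and *HEME1* without replicate 3 of either group.

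**Figure D4:**
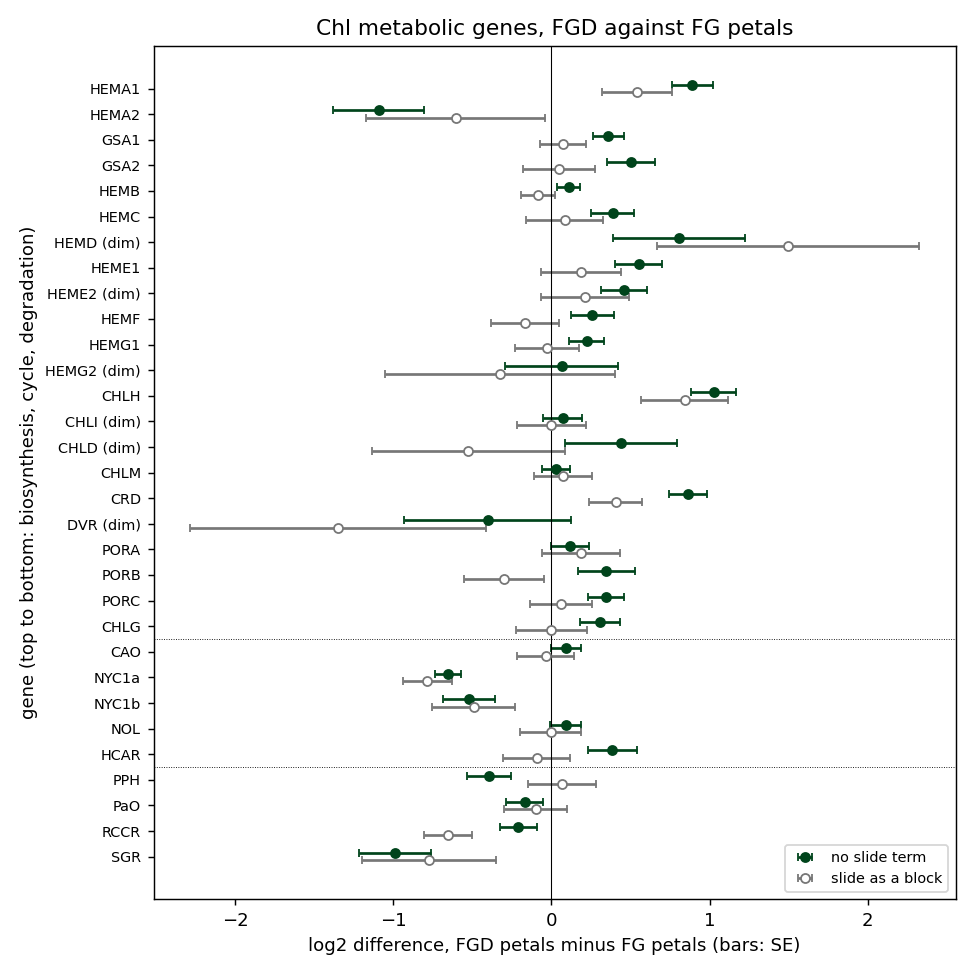
Each row is a Chl metabolic gene, from biosynthesis at the top through the Chl cycle to degradation at the bottom, with the log2 difference of FGD minus FG petals and its SE on the x axis, without a slide term (filled) and with slide as a block (open). *HEMA1*, *CHLH* and *CRD* lie highest among the tested biosynthesis genes, and *HEMA2*, *NYC1a* and *SGR* lie below 0 in both fits.

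In the Chl cycle, 2 of 5 probes were lower in FGD petals (40% against 14.2% of all tested probes) and none was higher. Both encode Chl b reductase, which starts the conversion of Chl b to Chl a. *NYC1a* was at 2.98, 2.84 and 3.01 in FG petals and at 2.36, 2.22 and 2.30 in FGD petals, a log2 difference of -0.65 (SE 0.08, adjusted p = 0.000403). It was the only one of the 31 Chl metabolic probes that passed the test with slide as a block (log2 -0.78, adjusted p = 0.0367), where 3.17% of all tested probes were called. Its level was 4.02, 4.13 and 4.16 in FW petals, so the FGD petal level lay below those of both other petals. *NYC1b* differed by -0.52 (adjusted p = 0.0386), with FGD petal replicate 1 at 3.80 inside the range of the FG petal arrays, 3.77 to 3.99. Its call was lost with slide as a block (adjusted p = 0.36) and without FG petal replicate 1 or 3 or FGD petal replicate 2 or 3 (0.0994 to 0.117). The probe that the study lists as *CAO*, for the oxygenase that makes Chl b, differed by 0.09 (95% interval -0.12 to 0.30). *NOL*, a partner of NYC1, differed by 0.09 (-0.13 to 0.31). *HCAR*, for the reductase that completes the return from Chl b to Chl a, was at -0.95, -1.02 and -1.14 in FG petals and at -0.58, -0.62 and -0.75 in FGD petals. All FGD petal arrays lay above, but the difference of 0.39 did not pass the test (adjusted p = 0.0857) and was -0.09 with slide as a block.

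In Chl degradation all 4 probes had a negative difference, as had 34349 of the 70270 tested probes. Of the 4, 1 passed the test (25%, against 14.2% of all tested probes called lower). With slide as a block 3 of the 4 kept their sign, as did 52524 of the 70270 tested probes. *SGR*, for Mg-dechelatase, was at 4.43, 3.96 and 4.50 in FG petals and at 3.60, 3.35 and 2.97 in FGD petals, a log2 difference of -0.99 (SE 0.23, adjusted p = 0.0099), or -0.77 with slide as a block (adjusted p = 0.372). *PPH*, for pheophytinase, differed by -0.39 (adjusted p = 0.059), or by 0.07 with slide as a block, *PaO*, for pheophorbide a oxygenase, by -0.17 (95% interval -0.43 to 0.09), and *RCCR*, for red Chl catabolite reductase, by -0.21 (-0.47 to 0.05). The median over the 4 was -0.30.

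A second transcription factor list of 38 probes was picked by the study for FW against FG petals, on the same FG petal arrays, so the comparisons share those arrays. Of its 25 tested probes, 5 were higher in FGD petals (20%, against 14.1% of all tested probes) and 1 was lower (4%, against 14.2%). The 5 include *MYB4* probe PD0028_048158, which also stood on the list for FGD petals and was thus picked for this same difference. The FHA and *MYB15* probes, not among the tested ones, stood on both lists too. The CONSTANS-like probes *COL16* and *COL6* belong to B-box zinc finger genes with a CCT domain. *COL16* probe PD0028_003905 was at 0.51, 0.28 and 0.25 in FG petals and at 1.94, 2.12 and 2.28 in FGD petals, a 3.40-fold difference (log2 1.77, SE 0.18, adjusted p = 0.000104). Its levels were -4.61, -3.90 and -3.94 in FW petals and 3.77, 3.79 and 3.59 in leaves. *COL6* was at 0.43, 0.16 and 0.34 in FG petals and at 2.00, 2.15 and 2.29 in FGD petals (log2 1.84, adjusted p = 2.77e-05).

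Both probes stayed called with slide as a block, *COL16* PD0028_003905 at 0.99 (adjusted p = 0.0286) and *COL6* at 1.27 (adjusted p = 0.0165). The other *COL16* probe, PD0028_117926, was at -1.52, -1.77 and -1.68 in FG petals and at -1.14, -1.08 and -0.37 in FGD petals, a difference of 0.79 that did not pass the test (adjusted p = 0.226). Under the slide block its sign turned, to -1.51 (adjusted p = 0.00703). Its FW petal levels were -7.01 on the first slide and -4.81 and -5.09 on the second, and 1 of these 3 arrays detected it.

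The other genes of this list include *MYB113-like*, with 4 probes. PD0028_148815 and PD0028_044920 were higher in FGD petals by 1.48 (adjusted p = 0.0106) and 1.05 (adjusted p = 0.0194). PD0028_075950 and PD0028_044537 lay below the signal filter and did not pass the test (adjusted p = 0.0676 and 0.277). No FG petal array detected either of them, and no FGD petal array detected PD0028_044537. MYB113 is a regulator of anthocyanin synthesis in Arabidopsis. For PD0028_148815 the levels were -5.01, -4.15 and -5.10 in FG petals and -3.34, -3.35 and -3.14 in FGD petals. In FW petals both probes were far higher, PD0028_148815 at 1.31, 0.70 and 0.67 and PD0028_044920 at 1.98, 1.27 and 1.23. With slide as a block the difference of PD0028_148815 between FGD and FG petals was 2.03 and did not pass the test (adjusted p = 0.148). PD0028_044920 was also not called with slide as a block (adjusted p = 0.102), nor without FG petal replicate 1 or 3 or FGD petal replicate 2 (0.0518 to 0.0597). *TGA10*, a bZIP gene that acts in anther development in Arabidopsis, was lower in FGD petals, with a log2 difference of -2.15 (SE 0.61, adjusted p = 0.025), but its FG petal levels of -0.83, 2.01 and 1.69 overlapped the FGD petal levels of -1.93, -1.0 and -0.66. That call was lost with slide as a block (adjusted p = 0.308) and without FG petal replicate 2 or 3 or FGD petal replicate 1 or 2 (0.0525 to 0.0946). *GNC*, a GATA factor that promotes greening in Arabidopsis, differed by 0.08 (95% interval -0.48 to 0.65). The 4 DREB and EAR motif probes differed by -0.60 to -0.47 without passing the test (adjusted p of 0.0582 to 0.11), and the 5 *HD40* probes by -0.91 to -0.26 (adjusted p of 0.146 to 0.718).

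Outside these lists, the probes with the largest differences that were detected on all 6 arrays and did not overlap between groups have no gene name in the sources used here. PD0028_137008 was at 2.19, 2.15 and 2.22 in FG petals and at -4.51, -4.55 and -4.61 in FGD petals, a 107-fold lower level with little spread between replicates (log2 -6.75, SE 0.11, adjusted p = 3.58e-10). It was at 2.26, 2.54 and 2.58 in FW petals and at 1.33, 1.66 and 1.28 in leaves, so FGD petals alone among the 4 groups were low, and with slide as a block the difference was -7.02. PD0028_120749 was at 3.70, 2.59 and 4.05 in FG petals and at -3.58, -3.84 and -3.75 in FGD petals, a 144-fold lower level (adjusted p = 1.51e-06). Of the probes that were higher, PD0028_007507 was at -2.58, -1.26 and -3.0 in FG petals and at 3.52, 3.50 and 3.44 in FGD petals (54.5-fold, adjusted p = 6.43e-05). PD0028_068465 was at 1.03, 2.40 and 0.69 in FG petals and at 7.01, 7.05 and 6.96 in FGD petals (49.6-fold, adjusted p = 1.2e-05). FG petal replicate 2 was the FG petal array nearest to FGD petals in all 4 of these probes, and neither of the higher probes was detected in leaves.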

How the data were processed

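RNA of FG and FGD ray petals was hybridized to 1-color Agilent custom arrays, 3 arrays a group, together with 3 FW petal and 3 FG leaf arrays. The authors deposited scanner files with a processed intensity for each spot, background-subtracted and not scaled between arrays, and a table of log2 values centered by probe on an unstated value. Group differences from that table matched those computed here within 2.69e-06, so it served as an alternative only. Its column medians were -0.12 to 0.19. The file headers, the submitters' processing notes (Feature Extraction 10.7.1.1) and the paper name different versions of the software. 

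Control spots were left out, and outlier spots (7 to 37 an array) were treated as missing. From each log2 intensity the 75th percentile of its array was taken off. The 70270 probes with a mean signal of at least 100 over the 12 arrays were tested with limma (3.58.1, R 4.3.3, data.table version 1.17.8) in a single fit with 1 mean a group, empirical Bayes variances and Benjamini-Hochberg adjustment. Listed probes below that signal took their values from a fit of all probes. A probe was called at an adjusted p under 0.05 and, where stated, a fold change over 5. The number of arrays limits the precision. On simulated data for this comparison, with 200 of 70270 probes changed by 3 on the log2 scale, the fit recovered 195 (a share of 0.975) with 1 false call. A call there required an adjusted p under 0.05 and a fold change over 5. The simulation therefore does not cover calls without a fold limit, such as those of the Chl metabolic genes. The simulated arrays had independent noise and no slide effect, so the count of false calls does not cover differences between slides. Figures were drawn with matplotlib 3.10.9.

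Named probes were the 31 Chl metabolic probes and the 24 and 38 transcription factor probes that the study pairs with names, plus the top 2 higher and top 2 lower probes among unlisted calls measured on all 6 arrays without overlap. The pairing of probe and gene was taken from the study and was not checked by sequence. The members and lists were chosen with earlier results of these data known. Alternatives were quantile and median normalization, the log2 table, no signal filter, a filter on detection, a signal floor of 100, only the 6 arrays, trended and robust variances, replicate and slide blocks, bounds, and each array left out in turn. Normexp with an offset of 50 was planned on mean signals, which the files used here do not hold, and was run on median signals. That choice, and the floor for named probes detected on some arrays of a group only, were made after seeing the data. Same-numbered replicates did not deviate together, so the numbers were not taken as pairs. Gene names of other probes, gene ontology classes and RT-qPCR were not analysed here.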

Additional observations from a re-analysis of the deposited data

How the results depend on the processing

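Normalization to quantiles or to the median, the log2 values of the authors, fitting only the 6 arrays, trended and robust variances and slide as a random block kept each count within 1.5 times its value. At over 5-fold, 313 higher and 525 lower probes became 974 and 947 with no signal filter, 876 and 915 with the detection filter, 168 and 250 with a signal floor of 100, 182 and 185 with slide as a block, 150 and 180 on slides 1 and 2 only with that block, and 154 and 217 with normexp. Using bounds gave 297 and 513. Without a fold limit, 9914 higher and 9944 lower probes became 923 and 1302 with slide as a block and 990 and 1543 on slides 1 and 2 only. Leaving out 1 array gave 240 to 433 higher and 395 to 698 lower probes at over 5-fold, both highest without FG petal replicate 2, and 6148 to 9098 higher and 6384 to 9048 lower without a fold limit. The counts without a fold limit fell by over 1.5 times without FG petal replicate 1 (6218 higher, 6384 lower) or 3 (6148 higher, 6432 lower), and for higher probes without FGD petal replicate 1 (6204). These fits use fewer arrays.

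The 7 Chl biosynthesis probes higher in FGD petals became 4 with no signal filter and 0 with slide as a block, on all slides or on slides 1 and 2 only; the 1 lower probe became 0 with either block. Leaving out 1 array gave 3 to 6 higher probes (3 without FG petal replicate 3, 4 without FG petal replicate 1 or any FGD petal array) and 0 to 1 lower probes (0 without FG petal replicate 1 or FGD petal replicate 1). The 13 called probes of the transcription factor list for FGD petals became 24 with no signal filter or with the detection filter, when more of the list was tested, 6 with the signal floor and 9 with normexp, 10 with slide as a block and 11 with bounds, and stayed at 13 without any single array.

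With the replicate number as a block, 313 higher and 524 lower probes were called at over 5-fold, and 5 Chl biosynthesis probes were higher. Deviations of same-numbered arrays correlated at 0.12, -0.03 and 0.08. Over the 94 named probes, 1772 values under the alternatives held 1556 that kept their direction and side of the threshold, 126 that lost the call, 35 that gained it and 55 that changed sign. Of these sign changes, 18 probes changed with slide as a block, on all slides and on slides 1 and 2, and 8 without FG petal replicate 3. Only *COL16* probe PD0028_117926 was called on either side of a change (-1.51 with slide as a block, on all slides or on slides 1 and 2). At the signal floor 26 named probes had both groups at the floor and gave no value. The cause of these changes was not tested. Dim probes, with 112 of the tested probes not above background on any of the 6 arrays, and 3 arrays a group limit the smallest differences that can be called.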
